A study of Mus musculus with 24 samples.

Results

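The genes described here are 10 mouse genes of the AP-1 and immediate early group, namely *Fos*, *Fosb*, *Fosl1*, *Fosl2*, *Jun*, *Junb*, *Jund*, *Egr1*, *Egr2* and *Atf3*. They were chosen by symbol, and each of the 10 matched 1 of the 49315 genes listed in the count tables. They were measured by mRNA sequencing in 24 libraries of astrocytes, the star-shaped glia of the brain, taken as primary cells from the cortices of wild-type C57BL/6J mouse embryos late in gestation. Cells were pooled over the embryos of a pregnant mouse and grown in medium with fetal bovine serum to passage 1. The 6 groups combine a dose of X-rays, which was 0 Gy (mock-irradiated), 0.1 Gy or 2 Gy, with lysis 6 h or 24 h later, and each holds 4 libraries that carry the replicate numbers 1 to 4. All cells had been seeded 3 days before exposure, so that time after exposure and time in culture cannot be told apart in a comparison of 24 h with 6 h. Levels are given in CPM, the counts of a gene scaled to 1000000 counts per library after TMM normalization, and a gene counts as called where its adjusted p was under 0.05.

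AP-1 is a family of dimeric transcription factors. Proteins of the Fos family (*Fos*, *Fosb*, *Fosl1*, *Fosl2*) cannot pair with themselves and bind DNA with a partner of the Jun family (*Jun*, *Junb*, *Jund*), whereas Jun proteins also pair with each other or with Atf proteins such as Atf3. Many of these genes, together with the zinc finger genes *Egr1* and *Egr2*, are immediate early genes: serum, growth factors, cytokines, injury or genotoxic stress switch them on through kinases and without new protein synthesis, and their short-lived mRNA then falls again. In astrocytes AP-1 is known from the response to injury and inflammation.

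Libraries held 14742855 to 38194800 counts, and all 10 genes passed the filter on low counts in each of the 8 comparisons. The count of a member in a single library was lowest for *Fosb* (16 counts). Astrocyte markers were present in every library (*Gfap* from 343 to 797 CPM), and so were markers of other cells. The summed level per library was 237 to 422 CPM for 10 neuron markers (*Stmn2* 181 to 322 CPM, *Tubb3* 35.1 to 123, *Rbfox3* at most 25 counts) and 404 to 886 CPM for 8 markers of the oligodendrocyte lineage (*Olig1* 151 to 537 CPM, *Mog* at most 9 counts). For 11 fibroblast and vessel markers it was 3527 to 7847 CPM (*Acta2* 2927 to 7365 CPM, *Col1a1* 118 to 879, *Cldn5* at most 2 counts). Their part in the results was not tested. The 6 libraries with the replicate number 2 stood apart: the sum of 12 microglia markers was 283 to 343 CPM in them and 1952 to 3424 CPM in the other 18, and each of the 12 markers was lower in all 6. As these are bulk samples, fewer cells of a type and less RNA per cell cannot be told apart. Results are therefore also given without number 2.

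The level per gene length was highest for *Jund*, with a median over the 24 libraries of 60.8 CPM per kilobase of exon, followed by *Jun* (50.6), *Junb* (25.4) and *Fosl2* (22.1). *Fos* (12.9), *Atf3* (12) and *Fosl1* (11.1) came next, and *Egr1* (1.91), *Egr2* (0.715) and *Fosb* (0.612) were lowest. This order pools the 6 groups, and only parts of it were separated by the spread. *Jund* (22.8 to 129 CPM per kilobase) spanned the whole range of *Jun* (42.8 to 57.1), and in mock-irradiated cells at 24 h its mean of 44.1 ± 28.9 lay below that of *Jun* (47.3 ± 6.32). The ranges of *Junb* and *Fosl2* overlapped as well, as did those of *Fos*, *Atf3* and *Fosl1*. *Fosl1* lay above *Fos* at 6 h (22.8 ± 9.38 against 13.5 ± 4.24 in mock-irradiated cells) and below it at 24 h (5.77 ± 2.82 against 10 ± 3.12). The genes differed in how much they varied. *Jun* was the steadiest, its highest library standing 1.34 times above its lowest. This ratio was 19.9 for *Fosl1*, 14.6 for *Fosb*, 9.52 for *Egr2*, 6.63 for *Egr1*, 5.68 for *Jund*, 4.62 for *Junb*, 4.11 for *Atf3*, 4.06 for *Fosl2* and 2.61 for *Fos*.

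**Figure D1:**
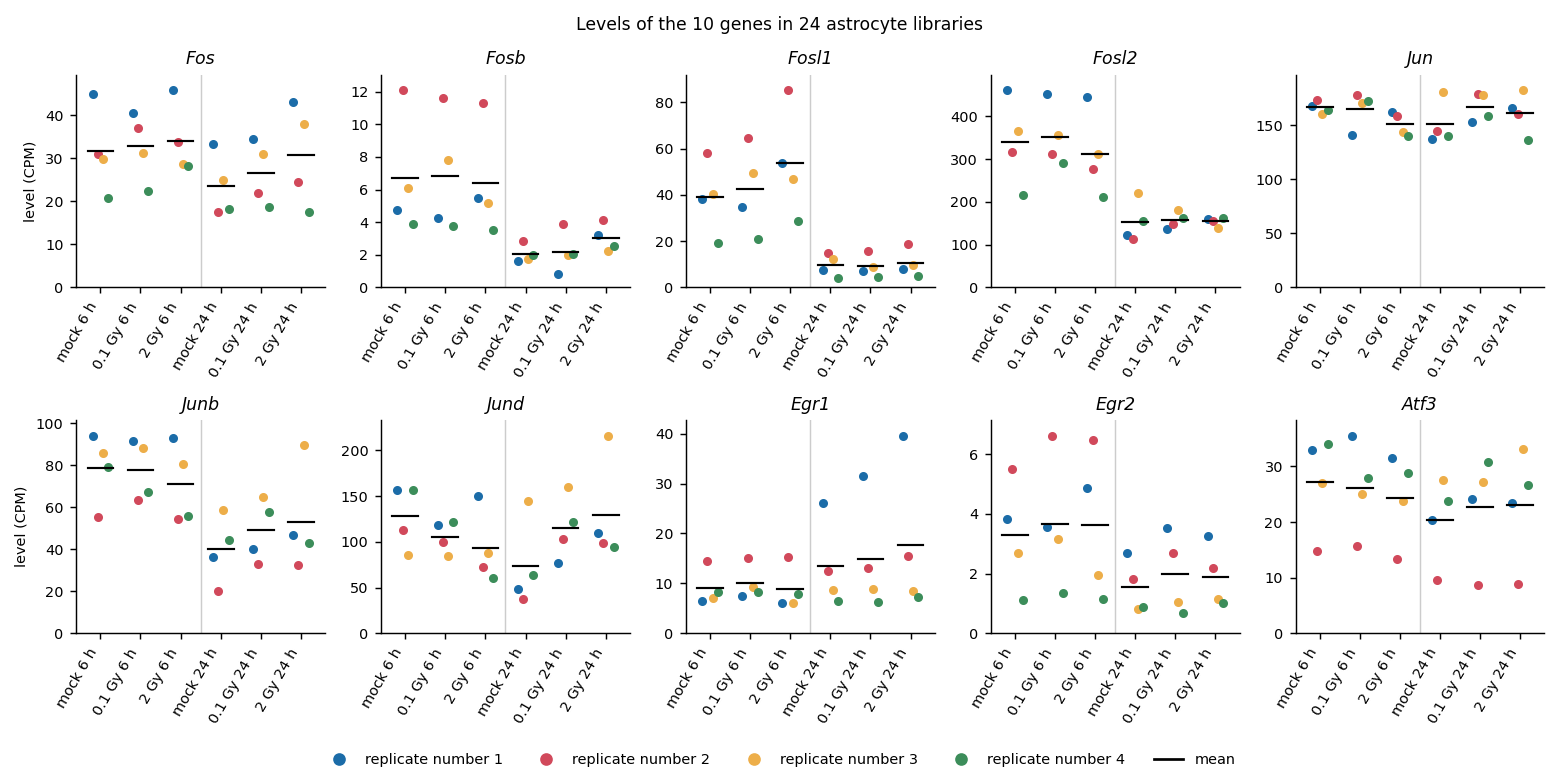
Level of each of the 10 genes in CPM (vertical axis, from 0) in the 24 libraries, by dose and time (horizontal axis); points are libraries coloured by replicate number and black lines are group means (n = 4). *Fosl1*, *Fosl2* and *Fosb* sit lower at 24 h than at 6 h at every dose, and *Jun* is level.

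The question addressed by the comparison of 24 h with 6 h was how the levels moved with time at each dose. *Fosl1* and *Fosl2* of the Fos family were called lower at 24 h than at 6 h at each dose, and *Fosb* in mock-irradiated cells. With the replicate number as a block in the fit, *Fosb* was called at each dose. *Junb* and *Egr2* were then called in mock-irradiated cells and after 0.1 Gy. No decrease was called for *Jun* or *Egr1*. The strongest difference was that of *Fosl1*.

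*Fosl1* (chr19:5447703-5455945, plus strand, build GRCm38 as for all positions here) encodes Fra-1, a Fos protein without the transactivation domain of c-Fos that is known from serum-stimulated, migrating and tumour cells. In mock-irradiated libraries 1 to 4 its level was 38.2, 58.1, 40.4 and 19.0 CPM at 6 h and 7.68, 15.1, 12.3 and 4.29 CPM at 24 h. After 0.1 Gy it was 35.0, 64.4, 49.4 and 20.8 CPM at 6 h and 6.94, 15.7, 8.96 and 4.68 CPM at 24 h. After 2 Gy it was 53.9, 85.2, 47.1 and 28.7 CPM at 6 h and 8.18, 18.7, 9.76 and 4.98 CPM at 24 h. In each of the 6 groups number 2 was highest and number 4 lowest, and the 24 h libraries lay below all 6 h libraries of the same dose. In the quasi-likelihood test of edgeR, with p-values adjusted over all genes after Benjamini and Hochberg, the log2 fold change was −2.0 (SE 0.427, adjusted p = 0.0275) in mock-irradiated cells, −2.24 (SE 0.440, adjusted p = 0.0169) after 0.1 Gy and −2.37 (SE 0.448, adjusted p = 0.0193) after 2 Gy. These are levels at 24 h of 0.251, 0.212 and 0.193 of those at 6 h. With a correction for GC content and length and no block, the call in mock-irradiated cells was lost (−1.64, adjusted p = 0.0648), while those after 0.1 Gy (−2.30) and 2 Gy (−2.50) were not.

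*Fosl2* (chr5:32135801-32157842, plus strand) encodes Fra-2, the Fos family mRNA with the highest median in CPM per kilobase here. Mock-irradiated libraries 1 to 4 held 461, 317, 367 and 216 CPM at 6 h and 123, 113, 221 and 155 CPM at 24 h. Libraries exposed to 0.1 Gy held 452, 311, 357 and 291 CPM at 6 h against 136, 148, 182 and 162 CPM at 24 h. Those exposed to 2 Gy held 444, 276, 312 and 212 CPM at 6 h against 160.2, 156, 139.9 and 161 CPM at 24 h. Groups overlapped only in mock-irradiated cells, where the 24 h library 3 lay above the 6 h library 4. The edgeR log2 fold change was −1.17 (SE 0.272, adjusted p = 0.036) in mock-irradiated cells, −1.19 (SE 0.155, adjusted p = 0.00437) after 0.1 Gy and −1.02 (SE 0.215, adjusted p = 0.0279) after 2 Gy.

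*Fosb* (chr7:19302696-19310051, minus strand), whose protein is known from lasting adaptations of neurons, was the lowest Fos gene. Its level in mock-irradiated libraries 1 to 4 was 4.76, 12.1, 6.09 and 3.87 CPM at 6 h and 1.63, 2.84, 1.76 and 1.99 CPM at 24 h. All 24 h libraries lay below the 6 h libraries, and the log2 fold change was −1.72 (SE 0.390, edgeR adjusted p = 0.0333). After 0.1 Gy the levels were 4.26, 11.6, 7.82 and 3.77 CPM at 6 h and 0.828, 3.91, 2.01 and 2.05 CPM at 24 h, and after 2 Gy 5.50, 11.3, 5.19 and 3.55 CPM against 3.20, 4.11, 2.26 and 2.56 CPM. Here the groups overlapped through number 2, the highest library in each of these 4 groups. The log2 fold change of −1.65 after 0.1 Gy (SE 0.505, edgeR adjusted p = 0.073) and of −1.08 after 2 Gy (SE 0.376, adjusted p = 0.12) did not pass without the replicate number in the fit. Libraries with the same number deviated together in these 2 comparisons, and with the number as a block the values were −1.67 (adjusted p = 0.000966) and −1.0 (adjusted p = 0.0144). Without number 2 the blocked call after 0.1 Gy held (−1.70, adjusted p = 0.00788) and that after 2 Gy was lost (−0.82, adjusted p = 0.0845).

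In all, edgeR called 3 of the 10 genes lower at 24 h in mock-irradiated cells, where 3.46% of the genes tested were called lower. After 0.1 Gy it called 2 (5.33% of the genes tested) and after 2 Gy also 2 (3.92%), and it called none of the 10 higher in these 3 comparisons, where 3.24%, 4.57% and 3.02% of genes were called higher. With the replicate block the count was 5 after 0.1 Gy (14% of genes called lower) and 3 after 2 Gy (10.4%). In mock-irradiated cells it was 5 (8.02%), with *Egr2* (−1.09, SE 0.306, adjusted p = 0.0363) and *Junb* (−1.06, SE 0.187, adjusted p = 0.005) beside *Fosl1*, *Fosl2* and *Fosb*. Same-numbered libraries were not taken as paired there, because their deviations correlated by only 0.0623 in number 3. The correlation was 0.41, 0.83 and 0.52 in numbers 1, 2 and 4. Without number 2 the blocked counts were 4 in mock-irradiated cells (3.66% of genes), 3 after 0.1 Gy (9.72%) and 2 after 2 Gy (5.63%). DESeq2 with the block called 5, 5 and 3 of the 10 lower in mock-irradiated cells, after 0.1 Gy and after 2 Gy, where it called 8.89%, 13.6% and 10.7% of genes lower. With the block and a correction for GC content and length edgeR called 5, 6 and 5 lower, against 13.2%, 17.4% and 14.4% of genes. In each comparison 2 of the 10 genes had 24 h libraries that all lay below the 6 h libraries, which held for 7.44% of genes in mock-irradiated cells, 9.38% after 0.1 Gy and 9.36% after 2 Gy. The calls rest on few libraries. In mock-irradiated cells none of the 10 was called when the 6 h library 1 or 3 or the 24 h library 1 or 4 was left out, and 0.678% to 1.12% of genes were called lower in these fits. The count was 1 without the 6 h library 2 (2.38% of genes), and 5 without the 24 h library 3 (9.4%), *Jund* (−1.37, adjusted p = 0.0154) among them. After 0.1 Gy 1 was called without the 6 h library 3 (2.15% of genes) or the 24 h library 3 (2.55%), and 3 without the 24 h library 2 (6.4%). After 2 Gy none was called without the 6 h library 1 or 3 or the 24 h library 1 or 4 (0.882% to 1.16%). Without number 2 in both groups, 3 genes were called in mock-irradiated cells (*Fosl1*, *Fosb* and *Junb*, with *Fosl2* at an adjusted p of 0.0559), 3 after 0.1 Gy and 2 after 2 Gy, against 3.72%, 7.36% and 3.71% of genes called lower, and *Fosl1* stood at −2.0, −2.37 and −2.51 on the log2 scale. The microglia marker sum was also lower at 24 h in all 4 numbers of mock-irradiated cells (3044, 309, 2514 and 3424 CPM at 6 h, 1952, 283, 2427 and 2386 CPM at 24 h), and in 2 of 4 after 0.1 Gy and 3 of 4 after 2 Gy. The oligodendrocyte lineage sum was lower at 24 h in 3 of 4 numbers of mock-irradiated cells and higher in 4 of 4 after both doses (499, 822, 427 and 466 CPM at 6 h against 663, 886, 763 and 570 CPM at 24 h after 0.1 Gy, and 578, 738, 443 and 404 CPM against 684, 882, 784 and 484 CPM after 2 Gy). At each dose the fibroblast and vessel sum was lower at 24 h in 3 of 4 numbers, and the astrocyte marker sum was higher in 3 of 4. The neuron sum was lower in 3 of 4 numbers of mock-irradiated cells, 1 of 4 after 0.1 Gy and 2 of 4 after 2 Gy. The part of these sums in the decrease was not tested.

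**Figure D2:**
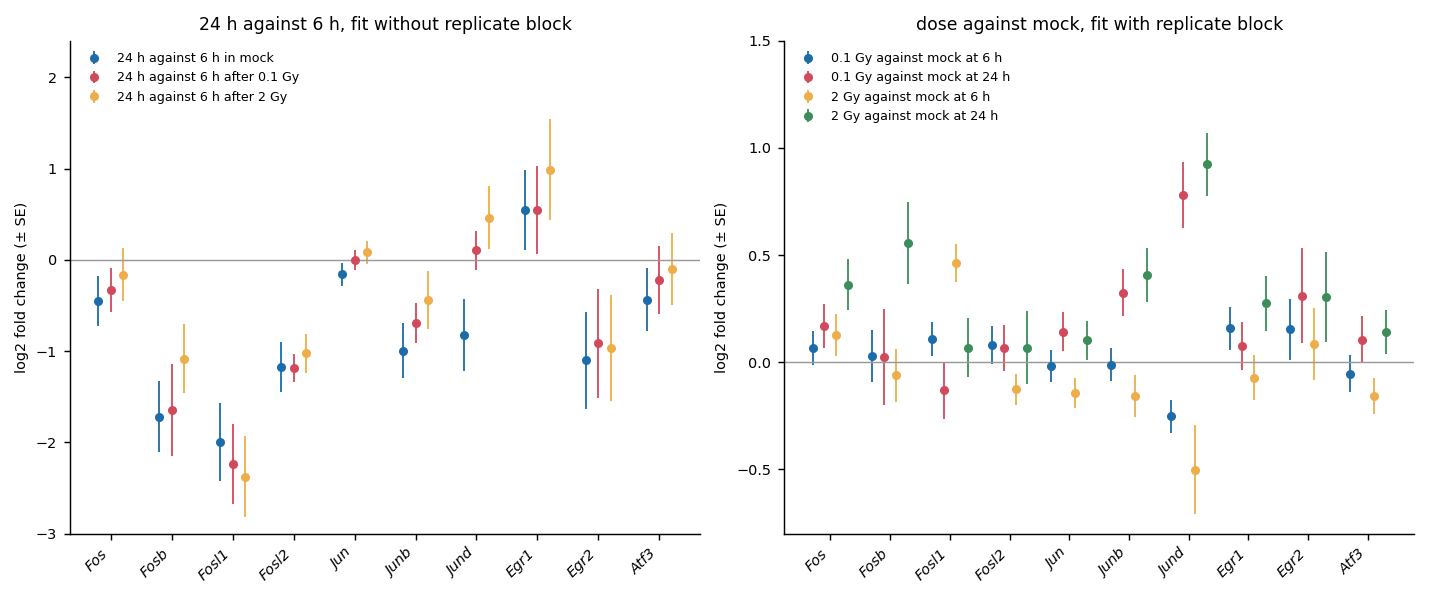
Log2 fold changes (vertical axes, log scale) of the 10 genes, with bars of 1 SE; left, 24 h against 6 h at each dose in the fit without the replicate block, and right, each dose against mock-irradiated cells in the fit with the block. On the left *Fosl1* lies lowest and all but *Jun*, *Jund* and *Egr1* lie below 0 at every dose; on the right *Jund* stands highest at 24 h and lowest at 6 h.

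*Junb* (chr8:84974484-84978718, minus strand) and *Jund* (chr8:70698949-70700616, plus strand) encode Jun proteins that are weaker activators than c-Jun and can restrain it. In mock-irradiated libraries 1 to 4 *Junb* was at 93.8, 55.3, 85.9 and 79.0 CPM at 6 h and at 36.1, 20.3, 58.8 and 44.4 CPM at 24 h. After 0.1 Gy it was at 91.7, 63.2, 88.1 and 67.3 CPM at 6 h and at 40.0, 33.0, 64.8 and 57.9 CPM at 24 h. After 2 Gy it was at 93.1, 54.3, 80.5 and 55.8 CPM at 6 h and at 46.9, 32.4, 89.5 and 43.0 CPM at 24 h. Number 2 was the lowest library in each group, and the groups overlapped at each dose. The edgeR log2 fold change was −0.99 (SE 0.298, adjusted p = 0.0793) in mock-irradiated cells and −0.69 (SE 0.220, adjusted p = 0.0828) after 0.1 Gy, where it passed with the block (−0.72, adjusted p = 0.00815), though not without number 2 (−0.64, adjusted p = 0.052). After 2 Gy it was −0.44 (adjusted p = 0.46), and −0.50 with the block (adjusted p = 0.0976). With the block and a correction for GC content and length it was called after 2 Gy too (−0.65, edgeR adjusted p = 0.00236). Part of *Junb* (351 bases) overlaps *Prdx2* on the other strand, which had 2906 to 10415 counts per library, and reads of the 2 genes can be told apart only if the counting used strand. *Jund* differed less evenly over time, with log2 fold changes of −0.82 (SE 0.398, edgeR adjusted p = 0.238) in mock-irradiated cells, 0.10 (adjusted p = 0.813) after 0.1 Gy and 0.46 (adjusted p = 0.48) after 2 Gy. With the block these were −1.01 (SE 0.350, adjusted p = 0.0754), 0.07 and 0.47, and none was called.

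*Egr2* (chr10:67535475-67542188, plus strand), a zinc finger gene known from hindbrain and Schwann cell development, was low, and lower at 24 h in all 4 replicate numbers at each dose, as were *Fosb*, *Fosl1* and *Fosl2*. This held for 17.7% of genes in mock-irradiated cells, 22.5% after 0.1 Gy and 22.7% after 2 Gy. Mean levels of *Egr2* were 3.28 ± 1.85 CPM at 6 h and 1.55 ± 0.879 CPM at 24 h in mock-irradiated cells, 3.67 ± 2.18 and 1.99 ± 1.34 CPM after 0.1 Gy and 3.61 ± 2.48 and 1.90 ± 1.06 CPM after 2 Gy (SD, n = 4). The groups overlapped at each dose, and no fit without the block called the gene. The blocked log2 fold change was −0.97 after 0.1 Gy (SE 0.275, edgeR adjusted p = 0.0259; −0.91 and adjusted p = 0.378 without the block). After 2 Gy it was −0.85 (SE 0.266, adjusted p = 0.0543), and −0.82 (adjusted p = 0.0353) with the correction for GC content and length as well. Without number 2 the blocked values were −0.84 (adjusted p = 0.122) and −0.54 (adjusted p = 0.26).

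*Fos* (chr12:85473890-85477273, plus strand), the founding Fos gene, had smaller differences than its relatives. Its mean was 31.7 ± 9.98 CPM at 6 h and 23.5 ± 7.34 CPM at 24 h in mock-irradiated cells, 32.8 ± 7.96 and 26.5 ± 7.42 CPM after 0.1 Gy, and 34.1 ± 8.22 and 30.9 ± 11.8 CPM after 2 Gy. The 24 h library was below the 6 h library of the same number in 4, 4 and 3 of the 4 numbers, yet the largest of the 3 log2 fold changes was −0.45 and none passed the test. With the block they were −0.44 (SE 0.169, edgeR adjusted p = 0.0984) in mock-irradiated cells and −0.33 (SE 0.137, adjusted p = 0.098) after 0.1 Gy. *Atf3* (chr1:191170296-191218039, minus strand), a stress-induced partner of Jun proteins, was at 27.2 ± 8.84 and 20.3 ± 7.69 CPM in mock-irradiated cells at 6 h and 24 h, at 26.1 ± 8.16 and 22.7 ± 9.78 CPM after 0.1 Gy and at 24.4 ± 7.98 and 23.0 ± 10.3 CPM after 2 Gy. Its log2 fold change in mock-irradiated cells was −0.44 (adjusted p = 0.475 in edgeR), and −0.46 with the block (SE 0.178, adjusted p = 0.101). Neither gene was called in any of the 3 comparisons with or without the block, and with the block and a correction for GC content and length *Fos* was called after 0.1 Gy (−0.35, edgeR adjusted p = 0.0332).

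*Jun* (chr4:95049034-95052222, minus strand) encodes c-Jun, the strongest activator of its family, and *Egr1* a zinc finger factor induced through serum response factor. *Jun* lay between 136 and 182 CPM in all 24 libraries, and its log2 fold changes from 6 h to 24 h were −0.16, 0.00 and 0.09 for mock-irradiated cells, 0.1 Gy and 2 Gy. *Egr1* had the highest fold change of the 10 genes at each dose (0.55, 0.55 and 0.99), with adjusted p-values from 0.334 to 0.522. This rested on number 1: in mock-irradiated libraries 1 to 4 *Egr1* was at 6.40, 14.6, 7.15 and 8.18 CPM at 6 h and at 26.0, 12.4, 8.75 and 6.53 CPM at 24 h. After 2 Gy it was at 5.96, 15.2, 6.09 and 7.95 CPM at 6 h and at 39.5, 15.4, 8.39 and 7.31 CPM at 24 h. Number 1 was the lowest library at 6 h and the highest at 24 h in both, and the groups overlapped.

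The makeup of the Fos family mRNA is given as a description, without a test. Summed over the 4 Fos genes, the level in CPM per kilobase was 72.5 ± 20.6 at 6 h and 31.9 ± 6.39 at 24 h in mock-irradiated cells, 76.3 ± 16.2 and 33.2 ± 4.03 after 0.1 Gy, and 79.2 ± 21.7 and 35.7 ± 5.65 after 2 Gy (SD, n = 4). *Fosl1* made up 31.0 ± 7.65% of this sum at 6 h and 18.1 ± 9.26% at 24 h in mock-irradiated cells, and 38.9 ± 9.58% and 16.7 ± 8.28% after 2 Gy. The share of *Fos* was 18.7 ± 2.63% at 6 h and 31.6 ± 8.97% at 24 h in mock-irradiated cells, and that of *Fosl2* was 48.8 ± 6.00% and 49.3 ± 10.2%, and after 2 Gy 41.0 ± 7.45% and 45.9 ± 9.97%. *Fosl2* was the highest of the 4 in 9 of 12 libraries at 6 h, with *Fosl1* highest in the 3 libraries of number 2, and in 8 of 12 at 24 h, with *Fos* highest in the other 4. The mean share of *Fosl1* was lower and that of *Fos* higher at 24 h.

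The promoters of 4 genes are shown as examples from both families: *Fosb*, which was called lower at 24 h, *Junb*, which was called with the block after 0.1 Gy, *Fos* with smaller differences, and *Jun* with none that was called. The sequences are RefSeq's, build GRCm38.p6, 5′ to 3′ on the strand of the gene, and cover the bases before the RefSeq start (for *Fosb* from 150 to 7 bases before it, otherwise the last 150 bases). *Fosb* is chr7:19310052-19310195, minus strand. *Junb* is chr8:84978749-84978898, minus strand, *Fos* is chr12:85473740-85473889, plus strand, and *Jun* is chr4:95052223-95052372, minus strand. Capitals mark matches to the motifs searched.
Fosb: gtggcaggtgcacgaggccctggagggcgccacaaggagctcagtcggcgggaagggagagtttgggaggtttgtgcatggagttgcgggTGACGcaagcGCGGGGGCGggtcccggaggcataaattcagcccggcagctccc
Junb: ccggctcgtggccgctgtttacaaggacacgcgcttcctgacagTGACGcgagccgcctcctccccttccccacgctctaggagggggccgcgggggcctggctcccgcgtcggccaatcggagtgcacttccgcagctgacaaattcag
Fos: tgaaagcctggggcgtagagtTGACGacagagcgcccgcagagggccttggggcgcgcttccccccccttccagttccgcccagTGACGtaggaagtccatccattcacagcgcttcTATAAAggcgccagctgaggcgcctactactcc
Jun: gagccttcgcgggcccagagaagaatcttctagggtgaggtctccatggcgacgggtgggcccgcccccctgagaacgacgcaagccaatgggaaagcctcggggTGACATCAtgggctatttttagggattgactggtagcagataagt

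The motifs were searched on both strands in the 250 bases before each start. TGACG, the core of the cyclic AMP response element TGACGTCA, begins 60 bases before the start of *Fosb*, 106 before that of *Junb* and 129 and 66 before that of *Fos*. It is held by 17.8% of the 32851 such windows of 27025 genes, and the full TGACGTCA, which contains it, by 1.55%. The AP-1 site TGACTCA is in 4.46% of windows and in none of the 8 genes with an entry, whereas TGACATCA, an AP-1 variant known from the *Jun* promoter, is 45 bases before the *Jun* start (2.93% of windows). An Egr site GCGGGGGCG is 50 bases before the start of *Fosb* and 79 before that of *Fosl2* (2.57% of windows), and a TATA box TATAAA 33 bases before that of *Fos* (12.4%). *Egr2* held a CArG box, the binding site of serum response factor, 72 bases before a start (1.47% of windows) and TGACG before several starts, and *Atf3* held TGACG 7 bases before its own. Entries were found for 8 of the 10 genes, all but *Fosl1* and *Egr1*, and all of these but *Jund* held at least 1 motif. The RefSeq start of *Jund* lies 1210 bases before the start of the gene as counted, and the matches of *Atf3*, *Fosl2* and *Egr2* precede RefSeq starts inside the counted gene. A match describes letters and is not a measured site.

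Part of the other immediate early genes was called lower at 24 h as well. Of a list of 32 such genes 30 were tested, and edgeR called 11 of them lower in mock-irradiated cells, 14 after 0.1 Gy and 12 after 2 Gy, and none higher, where 3.46%, 5.33% and 3.92% of all genes tested were called lower. The median log2 fold change of the list was −0.64, −0.72 and −0.59, against −0.02, −0.01 and 0.00 over all genes tested and −0.91, −0.51 and −0.30 over the 10 genes. With a correction for GC content and length and no block, the list had −0.55, −0.71 and −0.69 and the 10 genes −0.56, −0.54 and −0.41. Across genes the uncorrected log2 fold change correlated with GC content, with Pearson's r of −0.33, 0.07 and 0.15. The orphan nuclear receptor *Nr4a1* fell from 63.9 ± 30.6 to 4.83 ± 2.09 CPM in mock-irradiated cells (log2 fold change −3.74, SE 0.465, adjusted p = 0.00525), and by 3.64 after 0.1 Gy and 3.49 after 2 Gy on the log2 scale. Its relative *Nr4a3* had log2 fold changes of −3.16, −3.61 and −3.21. *Ier3*, an early gene that protects from apoptosis, had −2.08, −2.19 and −1.93, and the ERK phosphatase *Dusp5* −1.74, −1.6 and −1.44. *Klf10*, a TGF-beta inducible repressor, was called at each dose (−1.03, −1.17 and −1.18). *Gadd45b*, a stress sensor, was called in mock-irradiated cells (−1.13, adjusted p = 0.02).

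Genes known as AP-1 targets had the lowest medians. Of 19 listed 18 were tested, and 7, 9 and 8 of them were called lower in mock-irradiated cells, after 0.1 Gy and after 2 Gy, against 3.46%, 5.33% and 3.92% of all genes. Their median log2 fold changes were −1.18, −1.41 and −1.36. The cytokine *Il6* went from 14.3 ± 10.6 to 0.835 ± 0.329 CPM in mock-irradiated cells (log2 fold change −4.09, SE 0.622, adjusted p = 0.00907), and its fold changes after 0.1 Gy and 2 Gy were −5.12 and −4.54. *Ptgs2*, which encodes the prostaglandin synthase COX-2, had log2 fold changes of −2.66, −3.33 and −3.23. The cytokine *Lif* and the urokinase receptor *Plaur* were also called lower at each dose. The hyaluronan receptor *Cd44* was called after 0.1 Gy and 2 Gy (−1.42 and −1.49).

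Calls among partners and upstream genes went in both directions. Of 17 tested partners and competitors of AP-1, 3, 2 and 2 were called lower, among them *Maff* (−2.02, −1.66 and −1.59), a small Maf protein, and *Atf4* (−1.21, −1.11 and −1.04), the effector of the integrated stress response. The third, in mock-irradiated cells, was *Ddit3* (−1.14), and *Atf5* was called higher after 2 Gy (0.98, adjusted p = 0.0422). Their medians were −0.15, −0.31 and −0.18. Among 19 kinases, ternary complex factors and Egr corepressors the neuronal kinase gene *Mapk10* was called higher at each dose (0.99, 0.77 and 0.82), and the corepressor *Nab2* was called lower in mock-irradiated cells (−0.96) and after 0.1 Gy (−0.50). The medians of this group were −0.07, −0.18 and −0.06. With the replicate block, 21 and 16 of the other immediate early genes, 13 and 14 of the targets, 7 and 3 of the partners and 4 and 2 of the kinase group were called lower after 0.1 Gy and 2 Gy. Over all genes 14% and 10.4% were, so that the counts of the kinase group lie near those of all genes.

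**Figure D3:**
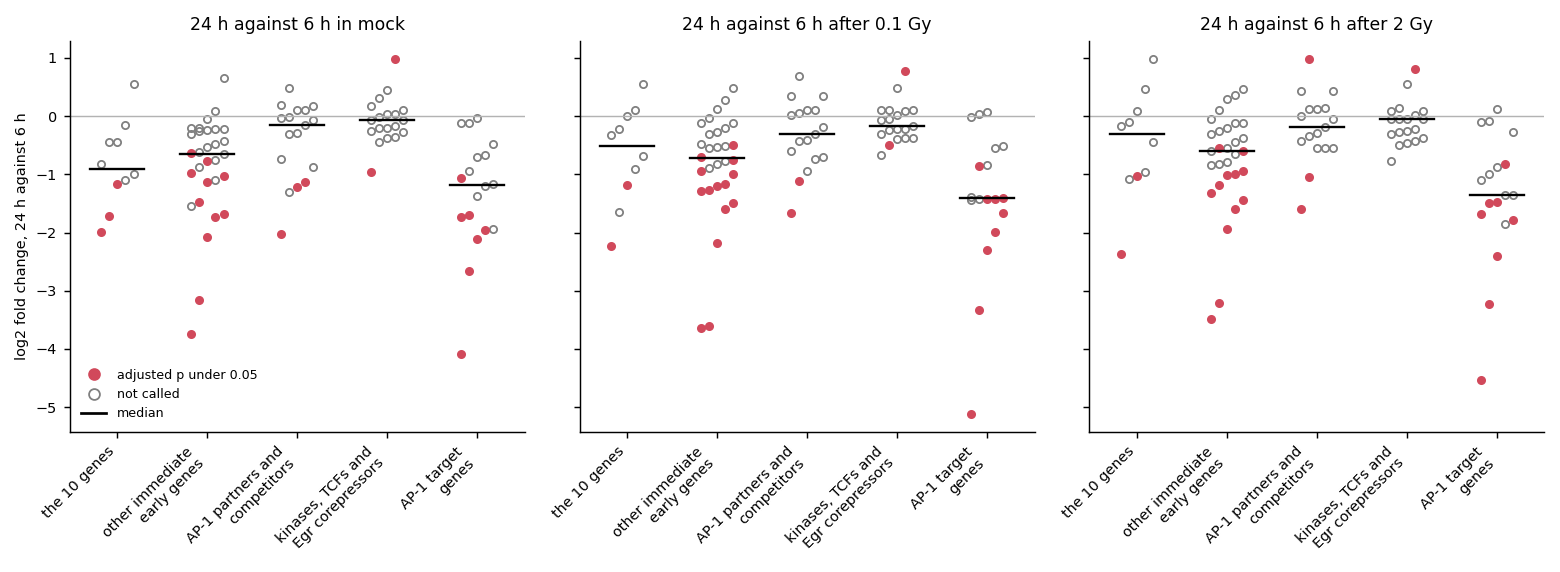
Log2 fold changes of 24 h against 6 h (vertical axis, log scale) in mock-irradiated cells, after 0.1 Gy and after 2 Gy, for the 10 genes and the 4 lists; filled points are genes called by edgeR without the block, open points genes not called, and bars medians. The AP-1 targets have the lowest median in each panel (−1.18, −1.41 and −1.36) and the kinase group lies near 0.

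The comparison of each dose with mock-irradiated cells asked whether X-rays changed these genes. The 2 doses share their mock-irradiated libraries at each time. None of the 10 genes was called by edgeR after 0.1 Gy at 6 h, after 0.1 Gy at 24 h, after 2 Gy at 6 h or after 2 Gy at 24 h, where 0% of all genes were called. At an unadjusted p under 0.05 the test had 24, 241, 215 and 570 genes (0.15%, 1.49%, 1.34% and 3.59%), none of the 10 among them, and DESeq2 and limma voom without the block called none of the 10 either. The groups of each of the 10 genes overlapped in all 4 comparisons, whereas 0.375%, 1.11%, 1.17% and 2.95% of all genes had groups that did not. At 6 h the log2 fold changes of the 10 genes lay between −0.28 and 0.15 after 0.1 Gy and between −0.46 and 0.46 after 2 Gy. At 24 h they lay between −0.12 and 0.64 after 0.1 Gy and between 0.02 and 0.82 after 2 Gy. After 2 Gy all 10 were positive at 24 h, with a median of 0.34 (0.01 over all genes), which was 0.29 with the block and 0.09, with 8 of 10 positive, when the blocked fit was also corrected for GC content and length.

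Libraries with the same number deviated together across genes in the 4 dose comparisons, so that the fit with the number as a block compares libraries of 1 number with each other. At 6 h after 0.1 Gy *Egr1* was higher and *Jund* lower in all 4 numbers, which held for 7.57% (higher) and 6.65% (lower) of genes. At 6 h after 2 Gy *Fosl1* was higher (8.77% of genes) and *Fosl2*, *Jun*, *Junb* and *Atf3* lower (8.55%) in all 4, with blocked log2 fold changes from −0.16 to −0.13 for these 4. At 24 h *Fos*, *Junb* and *Jund* were higher in all 4 numbers after 0.1 Gy (16.3% of genes) and *Fosb*, *Jund* and *Egr2* after 2 Gy (20%), while none of the 10 was lower in all 4 (16.2% and 21.9% of genes). In edgeR's blocked fit *Jund* was the only one of the 10 genes that was called, and only at 24 h. This depended on the numbers fitted: without number 3 that fit called 6 after 2 Gy at 24 h (*Fos*, *Fosb*, *Fosl2*, *Junb*, *Jund* and *Egr1*, all higher, with 16.7% of all genes called higher) and 2 after 0.1 Gy (*Junb* and *Jund*, with 11.4%). Without number 4 it called *Fosl1* at 6 h after 2 Gy (0.582% of genes).

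*Jund* was at 48.2, 38.0, 144 and 63.8 CPM in mock-irradiated libraries 1 to 4 at 24 h, at 76.3, 103, 160.3 and 122 CPM after 0.1 Gy and at 109.6, 98.3, 216 and 94.0 CPM after 2 Gy. Each irradiated library lay above the mock-irradiated library of its number, but the groups overlapped, since number 3 was high in all of them. The log2 ratio within numbers 1 to 4 was 0.66, 1.44, 0.15 and 0.94 for 0.1 Gy and 1.18, 1.37, 0.58 and 0.56 for 2 Gy. The blocked log2 fold change was 0.78 (SE 0.156, edgeR adjusted p = 0.0262) for 0.1 Gy and 0.92 (SE 0.148, adjusted p = 0.0112) for 2 Gy. Without the block it was 0.64 (SE 0.407, adjusted p = 0.943) and 0.82 (SE 0.432, adjusted p = 0.94). In the blocked fit 2.34% of the genes tested were called higher and 4.5% lower after 0.1 Gy, and 6.53% higher and 6.69% lower after 2 Gy.

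At 6 h the direction was the other one. *Jund* was at 157, 113, 85.8 and 157 CPM in mock-irradiated libraries 1 to 4, at 118, 99.6, 83.9 and 121 CPM after 0.1 Gy and at 149.7, 72.9, 87.7 and 60.7 CPM after 2 Gy. All 4 numbers were lower after 0.1 Gy and 3 of 4 after 2 Gy, with log2 ratios from −0.41 to −0.03 and from −1.37 to 0.03, and the groups overlapped. The blocked log2 fold changes of −0.25 (SE 0.0777, edgeR adjusted p = 0.885) and −0.50 (adjusted p = 0.682) were not called, and 0% of genes were. The interaction of 2 Gy and time, which is the difference between the 2 Gy effects at 24 h and at 6 h, was 1.29 for *Jund* without the block (edgeR adjusted p = 0.819). It was 1.43 with the block (SE 0.283, adjusted p = 0.0335), where 3.55% of genes were called higher, against 0% without it. *Jund* was the only one of the 10 with an unadjusted p under 0.05 in the unblocked interaction, which 827 genes (4.9%) had.

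*Jund* mRNA is unusually rich in G and C. Its exons have a GC content of 67.1%, above that of 99.8% of the genes tested, followed among the 10 genes by *Junb* (62.6%) and *Fosl1* (59.9%). The log2 fold change correlated with GC content across genes, which share the libraries and are no replicates, with Pearson's r of 0.61 (0.1 Gy, 16145 genes) and 0.58 (2 Gy, 15855 genes) at 24 h and of −0.35 and −0.39 at 6 h. After a correction for GC content and length in the blocked fit, *Jund* stood at 0.42 (edgeR adjusted p = 0.0177) after 0.1 Gy and 0.47 (adjusted p = 0.0193) after 2 Gy at 24 h, and its interaction at 0.78 (adjusted p = 0.0384). In that fit 1.03%, 1.32% and 0.931% of genes were called higher. The corrected values were smaller than the uncorrected ones and were still called.

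The blocked calls of *Jund* rested on particular numbers, and so did the share of all genes called higher. This share was 0.0124% without number 2 and 0.00617% without number 4 after 0.1 Gy, and 0.212% without number 1 and 0.0564% without number 2 after 2 Gy. After 0.1 Gy the adjusted p was 0.0777 without number 2 (log2 fold change 0.56) and 0.187 without number 4. After 2 Gy it was 0.106 without number 2 (0.77) and 0.0618 without number 1. The interaction was at an adjusted p of 0.120 without number 1 and 0.286 without number 2. In the fit without the block, leaving out the mock-irradiated 24 h library 3 moved the values to 1.19 and 1.36, and leaving out the 2 Gy library 3 moved the latter to 0.47. The share of counts on *Gm42418*, a predicted gene with sequence of ribosomal RNA, also varied at 24 h, from 0.886% to 10.4% in mock-irradiated libraries, from 0.707% to 5.19% after 0.1 Gy and from 0.364% to 7.30% after 2 Gy. The summed level of the 8 oligodendrocyte lineage markers at 24 h was 570, 610, 635 and 447 CPM in mock-irradiated libraries 1 to 4, 663, 886, 763 and 570 CPM after 0.1 Gy and 684, 882, 784 and 484 CPM after 2 Gy. In the same order the sum of the 12 microglia markers was 1952, 283, 2427 and 2386 CPM in mock-irradiated libraries, 2375, 343, 2470 and 2823 CPM after 0.1 Gy and 2277, 307, 3042 and 2437 CPM after 2 Gy. Like *Jund* both sums were higher in all 4 numbers after both doses. The part of these in the result was not tested.

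**Figure D4:**
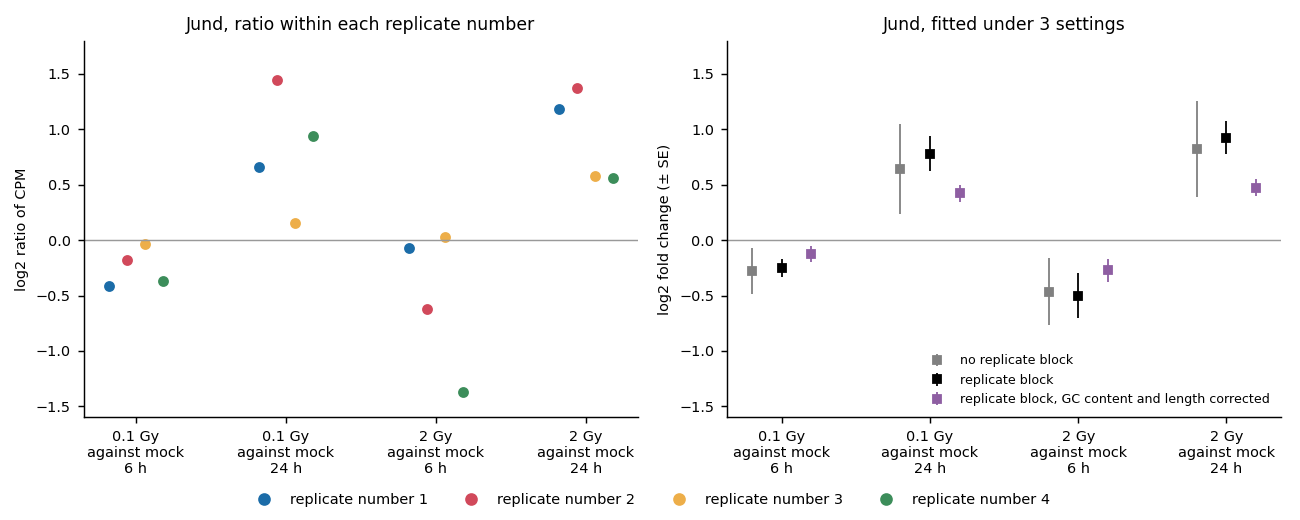
*Jund* in each dose comparison; left, log2 ratio of CPM within each replicate number, right, fitted log2 fold change with bars of 1 SE in the fit without the block, with it, and with it after a correction for GC content and length. All 8 ratios at 24 h lie above 0, 7 of the 8 at 6 h lie below 0, and the corrected values are closer to 0.

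*Fosl1* was the next member in the paired data. At 6 h after 2 Gy it was higher than in mock-irradiated cells in 4 of 4 numbers, by factors of 1.16 to 1.51, with means of 53.7 ± 23.6 and 38.9 ± 16 CPM and overlapping groups. The log2 fold change was 0.46 with the block (SE 0.0873, edgeR adjusted p = 0.196; 0% of genes called) and 0.46 without it. With the block in DESeq2 its adjusted p was 0.0207 (0.348% of genes called higher), and the corrected edgeR fit gave 0.59 (adjusted p = 0.0596). At 24 h *Fosl1* was at 10.4 ± 5.90 CPM after 2 Gy and 9.85 ± 4.81 CPM in mock-irradiated cells. After 0.1 Gy at 24 h (9.07 ± 4.76 CPM) the blocked fit gave −0.13, whereas the fit corrected for GC content gave −0.46 (adjusted p = 0.0413), where 0.476% of genes were called lower.

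*Junb*, *Fosb* and *Fos* had blocked values near the threshold at 24 h. For *Junb* these were 0.32 after 0.1 Gy (SE 0.110, edgeR adjusted p = 0.0799) and 0.41 after 2 Gy (adjusted p = 0.0624), and 0.00 and 0.02 after the correction for GC content and length. DESeq2 with the block called *Junb* after both doses (adjusted p = 0.0454 and 0.0342), where 6.33% and 7.81% of genes were called higher, and in the interaction (adjusted p = 0.0222, 8.28% of genes). The means were 39.9 ± 16.1 CPM in mock-irradiated cells, 48.9 ± 14.9 CPM after 0.1 Gy and 53.0 ± 25.1 CPM after 2 Gy. *Fosb* after 2 Gy was higher in 4 of 4 numbers, with means of 3.03 ± 0.815 against 2.06 ± 0.545 CPM and a blocked log2 fold change of 0.55 (SE 0.191, adjusted p = 0.0825). *Fos* after 2 Gy was higher in 3 of 4 numbers (30.9 ± 11.8 against 23.5 ± 7.34 CPM, 0.36, SE 0.120, adjusted p = 0.0739). With the correction these were 0.41 for *Fosb* (adjusted p = 0.239) and 0.18 for *Fos* (adjusted p = 0.353). In the blocked interaction *Fosb* (0.62), *Jun* (0.25), *Junb* (0.57), *Fosl1* (−0.39) and *Atf3* (0.31) as well as *Jund* had an unadjusted p under 0.05, which 30.8% of genes had, with edgeR adjusted p-values from 0.0556 for *Junb* to 0.156 for *Jun* among the former 5. With the correction *Fosl1* was called in the interaction (−0.91, adjusted p = 0.0445; 0.741% of genes called lower) and *Junb* stood at 0.02.

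Of the genes in the lists none was called for a dose without the block. With it, 8 were called after 0.1 Gy at 24 h (3 higher, 5 lower) and 13 after 2 Gy at 24 h (7 higher, 6 lower), and none at 6 h. Over all genes 2.34% were called higher and 4.5% lower after 0.1 Gy, and 6.53% and 6.69% after 2 Gy, so that the lists are not set apart by these counts. The partner genes *Cebpb* (0.58 and 0.62) and *Atf5* (0.56 and 0.72), both of the basic leucine zipper family, and the kinase gene *Map2k2* (0.41 and 0.45) were higher after both doses, and *Homer1* (−0.45 and −0.60), *Rps6ka3* (−0.42 and −0.50), *Cd44* (−0.34 and −0.44) and *Ptgs2* (−0.53 and −0.68) were lower after both. The p53 target *Btg2* (0.61) and the early genes *Ier5* (0.48) and *Ier2* (0.40) were called higher after 2 Gy. With the correction for GC content and length none of the 8 and none of the 13 was called, and *Klf2* (−0.56, adjusted p = 0.0304) was called after 2 Gy instead. At 6 h after 2 Gy the corrected fit called *Plk2* (0.39, adjusted p = 0.0426) and *Btg2* (0.32, adjusted p = 0.049) higher, with 0.757% of all genes called higher.

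The replicate numbers differed in ways that recurred. *Atf3* was lowest in number 2 at both times, at 8.62 to 15.7 CPM in its 6 libraries and at 20.4 to 35.5 CPM in the other 18. *Junb* was lowest in number 2 at 24 h (20.3 to 33.0 against 36.1 to 89.5 CPM), and its ranges overlapped at 6 h (54.3 to 63.2 against 55.8 to 93.8 CPM). *Fosl1* was highest in number 2 at both times, and *Fosb* (11.3 to 12.1 against 3.55 to 7.82 CPM), *Egr1* (14.6 to 15.2 against 5.96 to 9.27 CPM) and *Egr2* (5.50 to 6.60 against 1.13 to 4.85 CPM) were highest in number 2 at 6 h. The ranges of *Fos*, *Fosl2*, *Jun* and *Jund* in number 2 overlapped those of the other numbers at both times. These differences went with the low sum of microglia markers in number 2. Other sums set number 2 apart at 6 h as well. Neuron markers summed to 341, 345 and 337 CPM in it (mock-irradiated, 0.1 Gy and 2 Gy) and to 237 to 291 CPM in the other numbers. Oligodendrocyte lineage markers summed to 800, 822 and 738 CPM against 404 to 593 CPM. At 24 h the ranges of both sums overlapped. The part of these sums in the differences was not tested. Each dose and time holds 1 library of each number, so that the number is balanced over the groups.

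**Figure D5:**
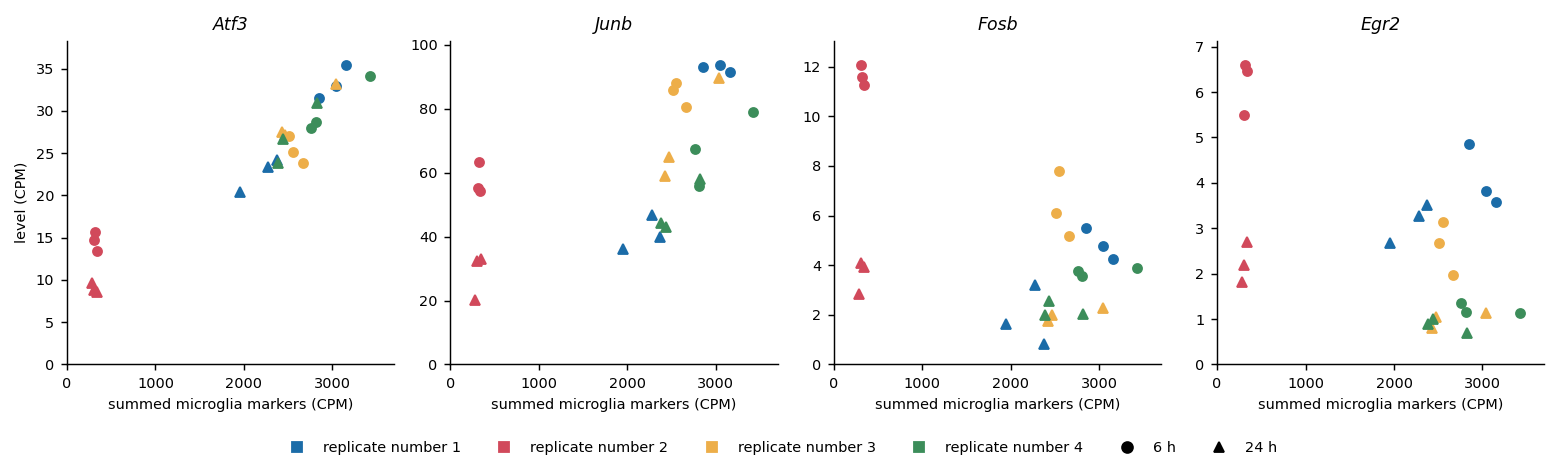
Levels of *Atf3*, *Junb*, *Fosb* and *Egr2* in CPM (vertical axes, from 0) against the summed CPM of 12 microglia markers (horizontal axis) in the 24 libraries, coloured by replicate number, circles for 6 h and triangles for 24 h. The 6 libraries of number 2 form the group at the left (283 to 343 CPM), with the lowest *Atf3* and, at 6 h, the highest *Fosb* and *Egr2*.

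The genes whose pattern over the 24 libraries was most like that of a member were named by the root mean square difference of centred log2 CPM, among 17343 genes. For *Jun* these were *Hadha*, *Adgrg1* and *Psmd2* (0.09 each), and for *Atf3* *Igfbp4* (0.16), *Kcnab2* (0.17) and *Sfxn5* (0.19). For *Fos*, *Nnat*, *Srxn1* and *Limd1* were nearest at 0.30. For *Egr1*, *Npas3* (0.49), *Fgf12* (0.50) and *2310002F09Rik* (0.50) were nearest. The root mean square of a gene's own centred values was 0.14 for *Jun*, 0.60 for *Atf3*, 0.43 for *Fos* and 0.74 for *Egr1*, so that of these distances those of *Atf3* were the smallest beside the gene's own variation.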

How the data were processed

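Each of the 24 libraries has a table of gene counts, whole numbers that the authors deposited without normalization. RNA was poly(A)-selected and sequenced as paired reads by a company. The submitters' processing notes name the build mm10, and the aligner, the counting tool and the use of strand are not given in the sources used here. Groups and replicate numbers came from the sample labels.

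For each comparison the libraries involved were fitted by edgeR 4.0.16 under R 4.3.3 (TMM, filterByExpr, quasi-likelihood test, Benjamini-Hochberg adjustment over all genes tested). There were 8 comparisons, each dose against mock-irradiated cells at 6 h and 24 h, 24 h against 6 h at each dose, and the interaction of 2 Gy and time. Log values used a prior count of 2. The 4 libraries of a group are described as biological repeats, with astrocytes newly isolated for each experiment.

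The members and the lists were chosen with earlier results of these data known. All 10 members are named, with a fold change and adjusted p, singly or as a range, where the unadjusted p was under 0.05 with or without the block or the groups did not overlap. List genes are named where called, at most 6 per list and comparison. Some of these are not reported here. Genes outside this rule, chosen after their values were seen, are *Klf2*, *Plk2* and *Btg2* at 6 h and the corrected *Fosl1* value at 24 h after 0.1 Gy.

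Same-numbered libraries were taken as paired where the deviations from the group means correlated by over 0.1 in every number. This was so in the dose comparisons (0.54 to 0.93) and after 0.1 Gy (0.38 to 0.85) and 2 Gy (0.25 to 0.83) between times, and not in mock-irradiated cells between times (0.0623 in number 3).

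Alternatives were DESeq2 1.42.0, limma 3.58.1 (voom), other scalings, no filter, at least 10 counts, all 24 libraries, a minimum fold change, the replicate block, the block with a spline correction (5 degrees of freedom) for GC content and length, and each library left out. Chosen after seeing the data were the correction without the block, the blocked fit without each number, and the time comparisons without number 2.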

Additional observations from a re-analysis of the deposited data

Results flagged for a closer look

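Within the 60 groups of 4 libraries of the 10 genes, 2 had a library far from the other 3 by Dixon's ratio, where chance gives about 1 in 20. *Jun* in the mock-irradiated 24 h library 3 was at 180.6 CPM against 137 to 145 CPM in the others (ratio 0.830). *Jund* in the 2 Gy 24 h library 3 was at 215.7 CPM against 94.0 to 109.6 CPM (ratio 0.872). The interaction of 2 Gy and time for *Jund* was 1.43 on the log2 scale in edgeR's blocked fit (adjusted p = 0.0335), where 3.55% of genes were called higher. Without the block it was 1.29 (edgeR adjusted p = 0.819). The blocked call was lost without number 1 and without number 2. Across genes the log2 fold change of the interaction correlated with GC content (Pearson's r of 0.58). After 0.1 Gy, *Jund* was lower at 6 h (log2 fold change −0.28) and higher at 24 h (0.64) in all 4 numbers, a difference that was not tested.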

How the results depend on the processing

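With the replicate block, the pairing of same-numbered libraries, members called went from 0 to 1 after 0.1 Gy and after 2 Gy at 24 h and in the interaction (*Jund* in each). Over all genes the share called higher there went from 0% to 2.34%, 6.53% and 3.55%. Between times members called went from 2 to 5 after 0.1 Gy (from 5.33% to 14% of genes called lower). In mock-irradiated cells between times, where the numbers were not taken as paired, they went from 3 to 5 (from 3.46% to 8.02%). In DESeq2 with the block the counts were 2, 2 and 2 after 0.1 Gy and after 2 Gy at 24 h and in the interaction (*Jund* and *Junb*). There 6.33%, 7.81% and 8.28% of genes were called higher. After 2 Gy at 6 h 1 was called (*Fosl1*, with 0.348% of genes called higher). Between times 5 were called after 0.1 Gy (13.6% of genes called lower) and 5 in mock-irradiated cells (8.89%). With the block and the GC content and length correction the counts were 2 and 1 after 0.1 Gy and 2 Gy at 24 h and 2 in the interaction. In these fits 1.03%, 1.32% and 0.931% of genes were called higher, and 0.476% lower after 0.1 Gy and 0.741% lower in the interaction. Between times the counts were 6 after 0.1 Gy (17.4% of genes called lower), 5 in mock-irradiated cells (13.2%) and 5 after 2 Gy (14.4%). The blocked fit without 1 number gave 1 (number 1, with 2.88% of all genes called higher) and 2 (number 3, 11.4%) after 0.1 Gy at 24 h. After 2 Gy it gave 1 at 6 h (number 4, 0.582%), and at 24 h it gave 6 (number 3, 16.7%) and 1 (number 4, 0.667%). For the interaction it gave 2 (number 3, 12.2%) and 1 (number 4, 0.407%). Leaving out 1 library gave 0 to 5 in mock-irradiated cells, 1 to 3 after 0.1 Gy and 0 to 2 after 2 Gy between times. In these fits 0.678% to 9.4%, 2% to 6.4% and 0.882% to 6.03% of genes were called lower. List genes called went with the block from 0 to 8 and 13 at 24 h after 0.1 and 2 Gy, from 23 to 36, from 27 to 48 and from 24 to 37 between times, and from 0 to 7 in the interaction. With the correction as well they were 2 after 2 Gy at 6 h, 1 after 2 Gy at 24 h, 45, 57 and 50 between times and 1 in the interaction. The shares of all genes moved too. Between times the share called lower went with the block from 3.46% to 8.02%, from 5.33% to 14% and from 3.92% to 10.4%. With the correction as well it was 13.2%, 17.4% and 14.4%. With the block 2.34% of all genes were called higher and 4.5% lower at 24 h after 0.1 Gy, and 6.53% and 6.69% after 2 Gy. In the interaction 3.55% were called higher. Of the 80 log2 fold changes of the 10 genes, the sign turned in 0 with the block, 10 with block and correction and 12 with the correction alone, all of them values of at most 0.28 that were not called. Among those followed through every setting it turned for *Junb* after 0.1 Gy at 24 h (−0.00059 with the correction alone) and for *Jun* in the interaction (−0.024 with block and correction, −0.019 with the correction alone). The cause of these changes was not tested. Of the other values of named members, 672 kept direction and side of the threshold, 53 passed it and 26 no longer did.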
